A study of Mus musculus with 4 samples.

Results

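The repressor Kruppel-like factors (KLFs) were followed in bone marrow stem and progenitor cells that lacked or carried Klf7, another gene of the family. The 9 genes, taken by name, were Klf3, Klf8 and Klf12, which form the CtBP group, and Klf9, Klf10, Klf11, Klf13, Klf14 and Klf16, which form the Sin3A group. Each was represented by 1 probe set that lists no other gene, so 9 of 19938 named genes and 9 of 28939 tested probe sets were members. All 9 were measured, and no filter on low values was applied to them.

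The study compared 4 Affymetrix arrays, 2 of Klf7-/- cells (Klf7 knockout, genotype label KLF7 KO) and 2 of Klf7+/+ cells (wild type). Both groups were KLS cells, that is Lin- c-Kit+ Sca-1+ cells sorted from bone marrow, a gate that holds hematopoietic stem cells and early multipotent progenitors. They came from C57Bl/6 chimeras set up with fetal liver cells, whose marrow held Klf7-/- and Klf7+/+ cells side by side. Age, treatment and the number of mice or donor embryos behind an array are not given in the sources used here. Replicates may thus differ for technical reasons alone, and every p-value covers no more than their spread. The part of Klf7 that was deleted is not given in these sources either.

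KLF proteins bind GC-rich and CACCC sequences in promoters through a run of zinc fingers at the carboxyl end, and members of the family can compete for the same sites. The CtBP group carries a short peptide motif that recruits the corepressor CtBP, which brings histone deacetylases and histone methyltransferases to the gene. The Sin3A group carries a helical motif that recruits the Sin3A corepressor with its histone deacetylases. In blood, KLF genes take part in erythroid, lymphoid and monocyte differentiation, and several regulate one another.

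Levels are log2 intensities. A difference is the knockout mean less the wild-type mean on that scale, with limma's moderated standard error (SE) and 95% confidence interval, n = 2 arrays per group throughout. Adjusted p-values are limma's, corrected by Benjamini-Hochberg over all 28939 probe sets. With 2 arrays against 2, the smallest two-sided p an exact permutation test can give is 0.333. Probe sets differ in how brightly they report the same amount of RNA, so each gene was compared only with itself. In a bulk sample, fewer cells expressing a gene and less RNA per cell cannot be told apart.

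The arrays were close in scale, with median intensities of the tested probe sets between 51.0 and 52.3, and correlated with Pearson's r of 0.961 to 0.969 across probe sets, which are not independent replicates. Klf7 itself read 6.59 and 6.18 in the knockout arrays against 5.95 and 6.10 in the wild-type arrays, so its probe set did not separate the labels in the direction of a deletion. A probe set outside the deleted part would check nothing. Of 12 marker genes of the KLS gate, 10 were measured, all 10 above the median level of named genes, and Ly6a, the gene of Sca-1, was not analysed here. The summed intensity of these 10 markers was 5627 to 5910 in knockout arrays and 4257 to 4704 in wild-type arrays. The markers did not all go the same way, with 8 higher and 2 lower in knockout. In 6 of them the groups did not overlap, 5 higher and 1 lower (60%, beside 33.2% of all named genes). Cd34 differed by 0.62 ± 0.15 (SE), Flt3 by 0.48 ± 0.19 and Mecom by -0.71 ± 0.25, and 0 of the 10 passed limma's adjusted threshold. Xist, the RNA of the inactive X chromosome, read 11.76 and 11.58 in knockout arrays against 5.24 and 4.80 in wild-type arrays. The sex-linked transcripts thus divided the arrays exactly as genotype did, and the sex of the cells and their genotype cannot be told apart.

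None of the 9 repressor KLF genes passed limma's adjusted threshold of 0.05, where 0.00346% of all probe sets did. Xist passed with a difference of 6.65, while the Y-linked gene Eif2s3y, at -4.58, did not (limma adjusted p of 0.648). Falling short of this threshold therefore does not show that a gene was unchanged. At an unadjusted p under 0.05 there was 1 member, Klf10, against 5.01% of all probe sets. Klf10 was the member with the largest difference, lower in the knockout arrays. Klf8 and Klf9 were a little higher in knockout without overlap between the groups, Klf14 lower by a small margin, and the other 5 genes overlapped. The 4 genes without overlap were 44.4% of the members, beside 33.2% of all named genes. In each direction there were 2 members, where 14.5% of named genes lay higher and 18.6% lower in knockout without overlap.

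**Figure D1:**
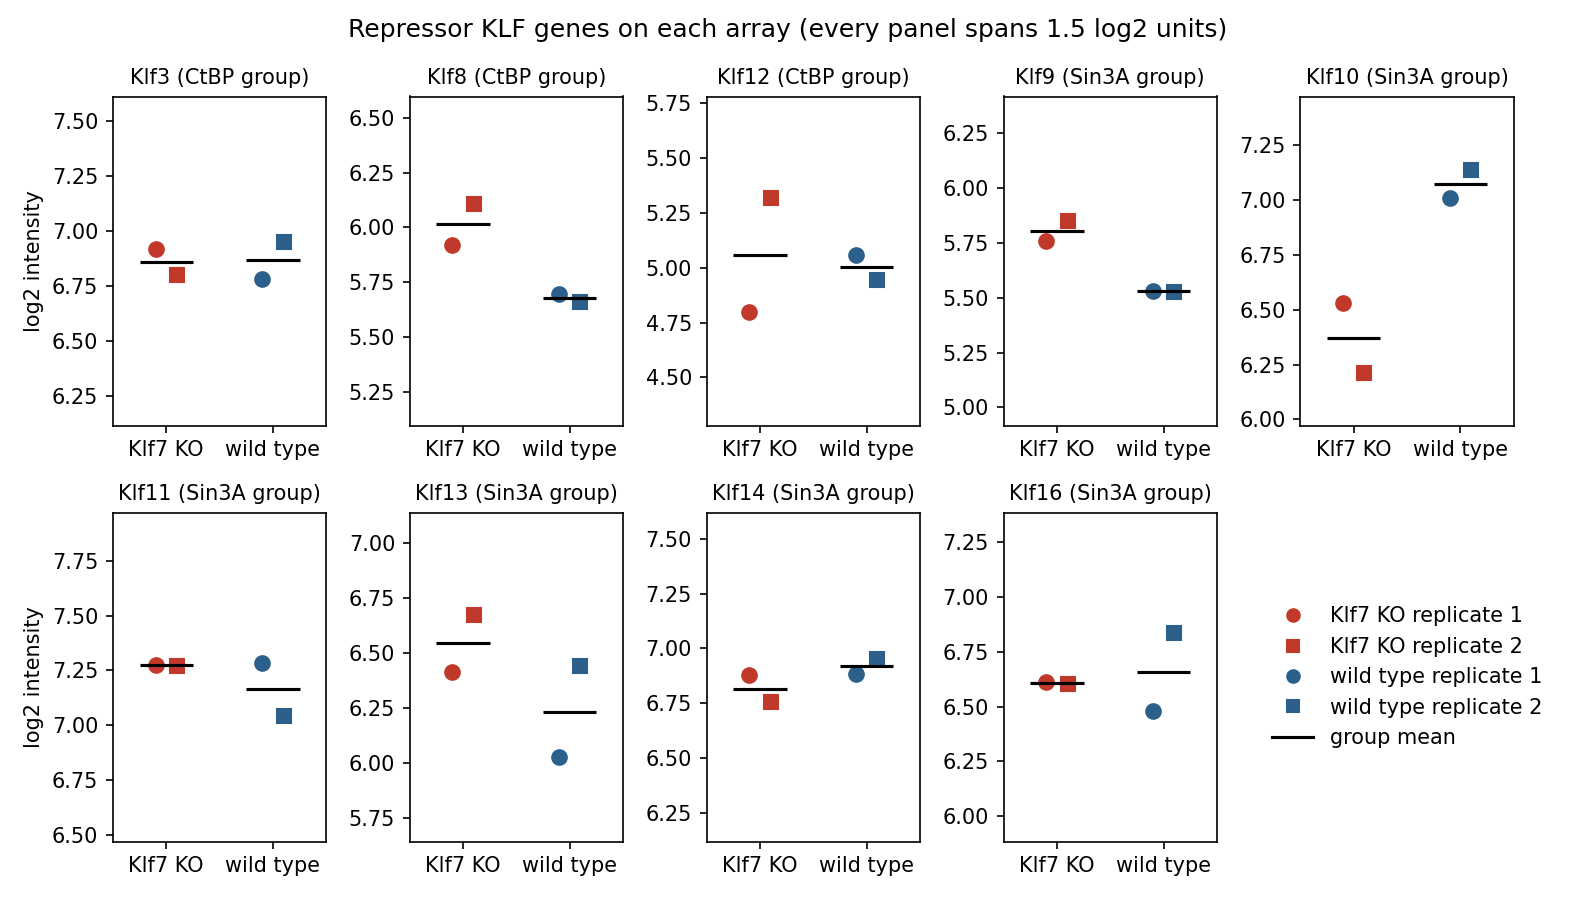
Log2 intensity (vertical axes) of the 9 repressor KLF genes on each array, with Klf7 knockout arrays in red at the left and wild-type arrays in blue at the right of every panel. Circles are replicate 1, squares replicate 2 and bars group means, and the knockout arrays of Klf10 (6.53 and 6.21) sit below both wild-type arrays (7.01 and 7.14).

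In the CtBP group, Klf3 encodes a broadly expressed repressor that binds CACCC boxes and in mouse erythroid cells is switched on by Klf1. It read 6.92 and 6.80 in knockout arrays against 6.78 and 6.95 in wild-type arrays. Both knockout arrays lay between the wild-type arrays, and the difference was -0.0055 ± 0.17 (SE), with a 95% interval of -0.44 to 0.43 and an adjusted p of 1.0. In fold terms the interval ran from 0.737 to 1.35, so a change within that range in either direction was not excluded by these arrays.

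Klf8, a relative of Klf3 that the CtBP corepressor also binds and that Klf3 represses in mouse erythroid cells, read 5.92 and 6.11 in knockout arrays against 5.70 and 5.66 in wild-type arrays. Both knockout arrays lay above both wild-type arrays, with 0.22 between the nearest of them. The difference of 0.33 ± 0.16, a ratio of 1.26 with an interval of 0.937 to 1.70, had a limma adjusted p of 0.949. It was larger than the gap between replicates, which was 0.18 in knockout and 0.04 in wild type, and it ran from 0.24 to 0.43 with single arrays left out. Klf8 lies on the X chromosome, and Xist divided these arrays in the same way. The part of the X chromosome in the Klf8 difference was not tested.

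Klf12, a repressor first described on the promoter of an AP-2 gene, read 4.80 and 5.32 in knockout arrays against 5.06 and 4.95 in wild-type arrays. The knockout arrays lay on either side of the wild-type arrays. Their gap of 0.52 was the widest of any member between replicates, and the difference of 0.06 ± 0.23 was smaller than it. Klf12 and Klf9 were the 2 members below the median level of named genes, which was 5.77. The 3 genes of the CtBP group thus had differences of -0.0055, 0.33 and 0.06 for Klf3, Klf8 and Klf12.

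The upstream regulator Klf1, an activator that drives erythroid genes, was dim in both groups (named after its values were seen). It read 4.57 and 4.80 in knockout arrays against 4.64 and 5.07 in wild-type arrays, with overlap. Summed intensity over the 5 erythroid markers measured, of 8 listed, ranged from 437 to 605 in knockout and 288 to 470 in wild type, again with overlap. Taken singly, 3 of the 5 were higher and 2 lower in knockout. In 2 of them the groups did not overlap, both higher in knockout (40%, beside 33.2% of all named genes).

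KLF genes are known to be regulated by other KLFs, so the promoter windows of the members in RefSeq (GRCm38.p6, 250 bases before to 50 after a gene start) were searched for the letters these factors bind. The motifs were CACCC and GGGCGG, each on both strands. Windows were found for 6 of the 9 genes, Klf3, Klf8, Klf9, Klf11, Klf12 and Klf13, with 7 windows in all because Klf8 has 2. CACCC stood in 6 of the 7 windows, beside 57.5% of all 32851 windows in the table, and GGGCGG in 5 of 7, beside 35.7%. The windows of Klf8 and Klf9, the genes higher in knockout without overlap, and that of Klf3, which held the most matches, are shown here. Capitals mark CACCC and GGGCGG or their complements.
Klf8, chrX:153237498-153237797, plus strand: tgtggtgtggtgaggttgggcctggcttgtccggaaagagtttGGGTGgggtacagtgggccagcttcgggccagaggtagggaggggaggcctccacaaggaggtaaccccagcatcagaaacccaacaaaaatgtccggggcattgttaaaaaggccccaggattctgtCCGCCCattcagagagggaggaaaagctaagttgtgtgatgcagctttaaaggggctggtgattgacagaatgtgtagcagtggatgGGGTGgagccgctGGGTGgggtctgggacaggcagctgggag
Klf8, chrX:153359363-153359662, plus strand: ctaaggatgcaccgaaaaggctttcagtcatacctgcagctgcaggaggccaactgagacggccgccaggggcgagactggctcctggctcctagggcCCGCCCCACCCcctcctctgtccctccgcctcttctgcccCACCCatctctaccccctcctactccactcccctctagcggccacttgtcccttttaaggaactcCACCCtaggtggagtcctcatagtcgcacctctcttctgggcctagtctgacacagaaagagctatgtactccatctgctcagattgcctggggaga
Klf9, chr19:23140976-23141275, plus strand: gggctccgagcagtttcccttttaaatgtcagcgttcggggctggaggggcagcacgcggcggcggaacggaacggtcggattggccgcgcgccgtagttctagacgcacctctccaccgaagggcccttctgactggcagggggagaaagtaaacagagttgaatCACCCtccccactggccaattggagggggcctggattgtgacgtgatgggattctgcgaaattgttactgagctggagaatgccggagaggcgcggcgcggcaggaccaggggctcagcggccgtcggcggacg
Klf3, chr5:64803271-64803570, plus strand: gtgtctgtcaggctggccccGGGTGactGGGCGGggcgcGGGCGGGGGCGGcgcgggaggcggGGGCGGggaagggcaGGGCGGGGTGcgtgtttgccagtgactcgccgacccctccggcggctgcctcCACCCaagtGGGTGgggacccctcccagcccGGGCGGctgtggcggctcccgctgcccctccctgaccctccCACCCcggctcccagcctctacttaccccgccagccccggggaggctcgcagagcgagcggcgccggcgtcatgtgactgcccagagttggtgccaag

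The window of Klf3 held 5 CACCC and 6 GGGCGG matches, with 1 pair sharing letters, in a stretch that was 76.7% G or C. Each Klf8 window held 3 CACCC matches and 1 GGGCGG match, and that of Klf9 held 1 CACCC match and no GGGCGG. Among the windows not shown, Klf12 had 1 CACCC match, Klf13 had 1 CACCC and 3 GGGCGG matches with 1 pair sharing letters, and Klf11 had 4 GGGCGG matches. The windows of Klf3, Klf11 and Klf13 were the richest in G and C among the 7, at 72.0% to 77.7%. These are matches of letters, and binding was not measured.

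In the Sin3A group, Klf10 is a transcription factor gene induced by TGF-beta and within the first hours of many other stimuli. It read 6.53 and 6.21 in knockout arrays against 7.01 and 7.14 in wild-type arrays, which on the linear scale is 92.5 and 74.0 against 129 and 141 intensity units. Both knockout arrays lay below both wild-type arrays, with 0.48 between the nearest of them. The difference of -0.70 ± 0.19 corresponds to a ratio of 0.615 with an interval of 0.436 to 0.867. It exceeded the gap between replicates, 0.32 in knockout and 0.12 in wild type. Its unadjusted p was 0.0156, which 277 named genes undercut, and its limma adjusted p was 0.945. With single arrays left out it ran from -0.86 to -0.54. Its direction could not change there, because groups that do not overlap keep their order when a single array is dropped.

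Klf11, the other TGF-beta-inducible member and the closest relative of Klf10, read 7.28 and 7.27 in knockout arrays against 7.28 and 7.04 in wild-type arrays. Wild-type replicate 2 stood below the other 3 arrays, which lay together. The difference was 0.11 ± 0.17, with an interval of -0.34 to 0.56, and without wild-type replicate 2 it was -0.01. The interval of Klf11 and that of Klf10, which ran from -1.20 to -0.21, overlapped, and the difference between the genes was not tested.

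Klf9, which glucocorticoids and thyroid hormone induce in many tissues, read 5.76 and 5.85 in knockout arrays against 5.53 and 5.53 in wild-type arrays. Both knockout arrays lay above both wild-type arrays, with 0.23 between the nearest of them. The difference of 0.27 ± 0.15, a ratio of 1.21 with an interval of 0.914 to 1.60, had a limma adjusted p of 0.950. It exceeded the replicate gap of 0.09 in knockout, and the wild-type arrays differed by only 0.0032. A replicate gap that small gave no measure of precision by itself, and limma's SE, which borrows from all probe sets, was the one used. With single arrays left out the difference ran from 0.23 to 0.32.

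Klf13, an activator of the chemokine gene Ccl5 in T cells as well as a Sin3A-dependent repressor, read 6.42 and 6.68 in knockout arrays against 6.02 and 6.44 in wild-type arrays. Knockout replicate 1 and wild-type replicate 2 lay side by side, so the groups overlapped. The difference of 0.31 ± 0.22 was close in size to that of Klf8, but the wild-type arrays alone were 0.42 apart. It stood at 0.10 without wild-type replicate 1 and 0.18 without knockout replicate 2, against 0.44 without knockout replicate 1 and 0.52 without wild-type replicate 2.

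Klf14, an intronless gene expressed from the maternal copy in mouse embryos, read 6.88 and 6.75 in knockout arrays against 6.88 and 6.95 in wild-type arrays. Strictly the groups did not overlap, but only 0.0053 separated knockout replicate 1 from wild-type replicate 1. The difference of -0.10 ± 0.16 was smaller than the knockout gap of 0.12, and it stood at -0.04 without knockout replicate 2 and -0.16 without knockout replicate 1.

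Klf16, a repressor first studied on dopamine receptor promoters, read 6.61 and 6.60 in knockout arrays against 6.48 and 6.83 in wild-type arrays. The knockout arrays were nearly equal and lay between the wild-type arrays. The difference of -0.05 ± 0.19 was within the wild-type gap of 0.35, and without wild-type replicate 2 it was 0.13.

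**Figure D2:**
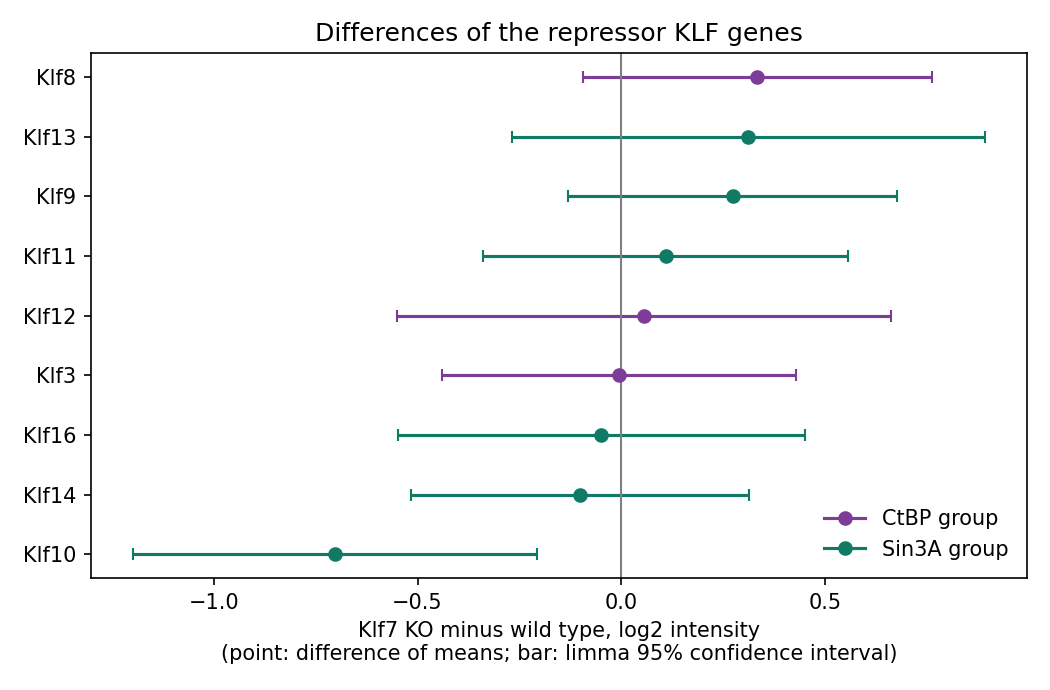
Knockout minus wild-type difference (horizontal axis, log2 intensity) of each repressor KLF gene, with limma's 95% confidence interval as a bar and genes ordered by difference. The interval of Klf10, -1.20 to -0.21, is the only one of the 9 that does not reach 0, before any correction for the number of probe sets tested.

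Over the 9 members, 5 differences were above 0 and 4 below, with a median of 0.06, beside -0.03 for all named genes. The median size of the difference, whatever its sign, was 0.11 for the members and 0.16 for all named genes. Only Klf8, Klf9 and Klf10 had a difference larger than the replicate gap in both groups. How many of all named genes do so was not counted, so this describes the 9 members and does not set them apart. In the Sin3A group 3 genes lay above 0 and 3 below. In the CtBP group 2 lay above 0, and Klf3, at -0.0055 with an SE of 0.17, was on neither side by more than its error. Intervals were between 0.81 and 1.21 log2 units wide.

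**Figure D3:**
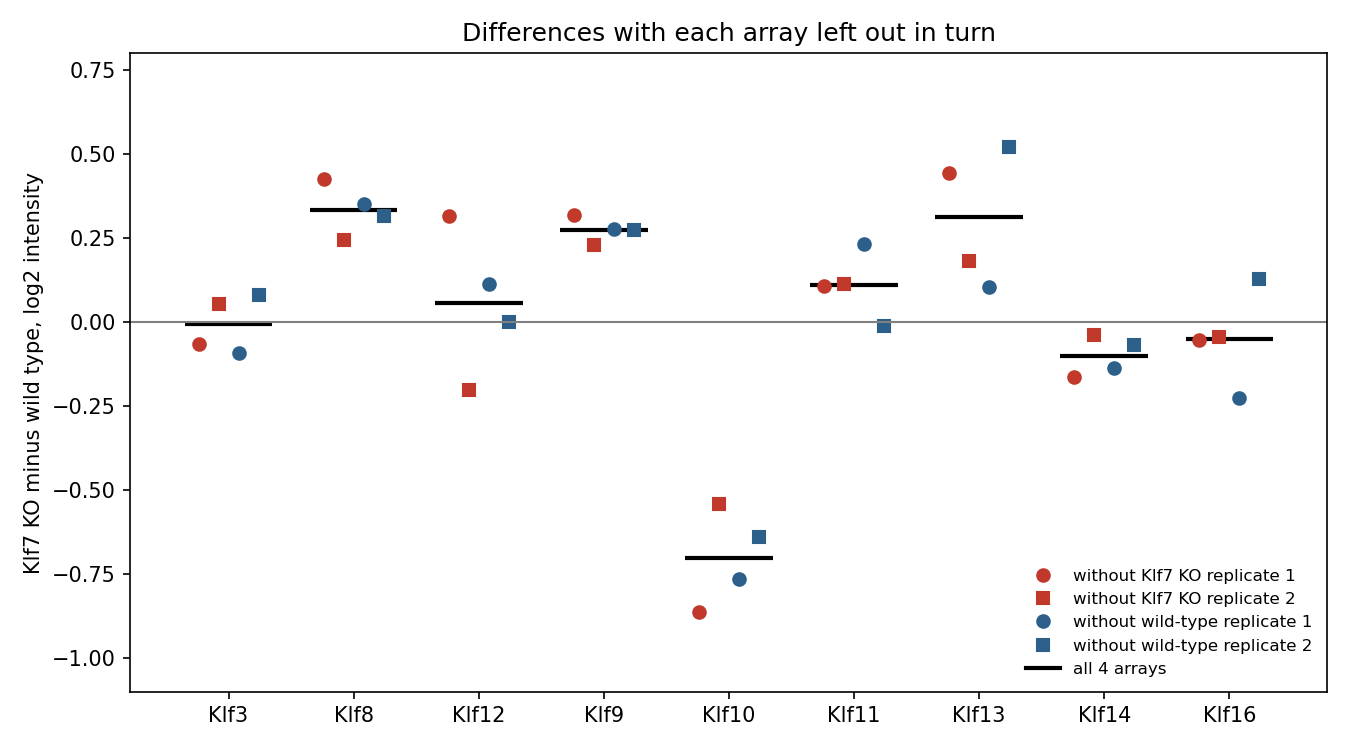
Knockout minus wild-type difference (vertical axis, log2 intensity) of each gene with all 4 arrays (black bar) and with each array left out in turn (red, a knockout array left out, blue, a wild-type array left out). Klf10 stays between -0.86 and -0.54 and Klf8, Klf9, Klf13 and Klf14 keep their side of 0, while Klf3, Klf11, Klf12 and Klf16 cross it. For Klf8, Klf9, Klf10 and Klf14 the side was fixed in advance, because their groups do not overlap.

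The rest of the family was measured beside the repressors. Of 17 further KLF and Sp factors listed, 16 were measured, 0 passed limma's adjusted threshold in either direction and 0 had an unadjusted p under 0.05. Their median difference was 0.01, with 9 higher and 7 lower, and 5 did not overlap between the groups (31.2%, beside 33.2% of all named genes). Klf6, a family member that is itself induced early by stimuli, read 8.54 and 8.81 in knockout arrays against 9.42 and 8.99 in wild-type arrays, a difference of -0.53 ± 0.23. The knockout arrays of Klf6 lay below the wild-type arrays, as those of Klf10 did. Sp4, a GC box factor, differed by 0.30 ± 0.22 with overlap, and Klf7 by 0.36 ± 0.21 without.

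The corepressor genes through which these KLFs act were read on the same arrays. Of 28 genes of the CtBP and Sin3 complexes listed, 27 were measured, and 0 passed limma's adjusted threshold or an unadjusted p of 0.05. Their median difference was 0.05, and 5 did not overlap between the groups, 2 higher and 3 lower in knockout (18.5%, beside 33.2% of all named genes). Ctbp2 read 6.47 and 6.45 in knockout arrays against 6.48 and 6.45 in wild-type arrays, and Ctbp1 6.86 and 6.83 against 6.71 and 7.22. Neither CtBP gene separated the groups. Sin3a, the scaffold of the Sin3A complex, read 8.32 and 7.81 in knockout arrays against 7.68 and 7.81 in wild-type arrays, without overlap, although knockout replicate 2 and wild-type replicate 2 were almost equal. Hdac1, a histone deacetylase shared by both complexes, differed by -0.22 ± 0.17 and Hdac2, its close relative, by 0.17 ± 0.31.

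By size among those above the median level, the leading corepressor genes were Ing2, Sap30 and Rcor1. Ing2, a Sin3 complex subunit that binds methylated histone H3, read 7.20 and 7.51 in knockout arrays against 8.20 and 7.61 in wild-type arrays, a difference of -0.55 ± 0.27. Sap30, another Sin3 subunit, differed by 0.38 ± 0.48, and Rcor1, a partner of the histone demethylase Kdm1a in CtBP complexes, by 0.33 ± 0.43. Sap30 and Rcor1 overlapped between the groups, and knockout replicate 1 was the highest array for both. Ctbp1, Ctbp2, Sin3a and the histone deacetylases were named after their values were seen, as the proteins the KLF groups are named for or act through.

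Because Klf10 and Klf11 respond to TGF-beta, genes of that pathway were set beside them. Of 17 measured among 18 listed, 0 passed either limma's adjusted threshold or an unadjusted p of 0.05, and the median difference was -0.04. In 3 genes the groups did not overlap (17.6%, beside 33.2% of all named genes). Smad7, the inhibitory Smad whose gene Klf10 is known to repress, read 5.93 and 6.20 in knockout arrays against 6.32 and 6.00 in wild-type arrays, with overlap (named after its values were seen). Smurf1, a ubiquitin ligase of Smad proteins, differed by 0.51 ± 0.35, and Smad3, a signal transducer of the pathway, by -0.41 ± 0.33, both with overlap. Pmepa1, a TGF-beta target that dampens the pathway, differed by -0.35 ± 0.18 without overlap.

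For Klf9 the companion list was that of glucocorticoid and thyroid hormone response, with 10 of 10 genes measured. Of these, 0 passed limma's adjusted threshold and 1, Fkbp5, had an unadjusted p under 0.05, beside 5.01% of all probe sets. Fkbp5, a chaperone partner of the glucocorticoid receptor and a sensitive target of it, read 6.57 and 6.29 in knockout arrays against 5.91 and 5.49 in wild-type arrays, or 0.73 ± 0.22 apart (limma adjusted p = 0.945). Tsc22d3, another glucocorticoid target and an X-linked gene, lay the other way at -0.32 ± 0.22, and the receptor gene Nr3c1 differed by 0.38 ± 0.35. The median of the list was -0.01, and 5 of its 10 genes did not overlap, 3 higher and 2 lower in knockout, beside 33.2% of all named genes.

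Klf10 is often counted among immediate early genes, which are induced without new protein synthesis. Of 22 such genes listed without Klf10, 21 were measured, and 19 of these lay lower in knockout arrays, as did 10971 of all 19938 named genes. In 11 genes the groups did not overlap, all lower in knockout, beside 18.6% of named genes in that direction. Their median difference was -0.30, beside -0.03 for all named genes and -0.70 for Klf10. None passed limma's adjusted threshold, and 7 of the 21 had an unadjusted p under 0.05, beside 5.01% of all probe sets. Btg2, an antiproliferative gene, differed by -1.08 ± 0.26, the zinc finger gene Egr1 by -0.89 ± 0.23 and Ier2, an early response gene, by -0.68 ± 0.22. The summed intensity of the list was 6636 to 7713 in knockout arrays and 8896 to 9833 in wild-type arrays. The low direction of this gene class in knockout was known before the list was drawn up, so its direction is not independent support for that of Klf10. Its part in the Klf10 difference was not tested.

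**Figure D4:**
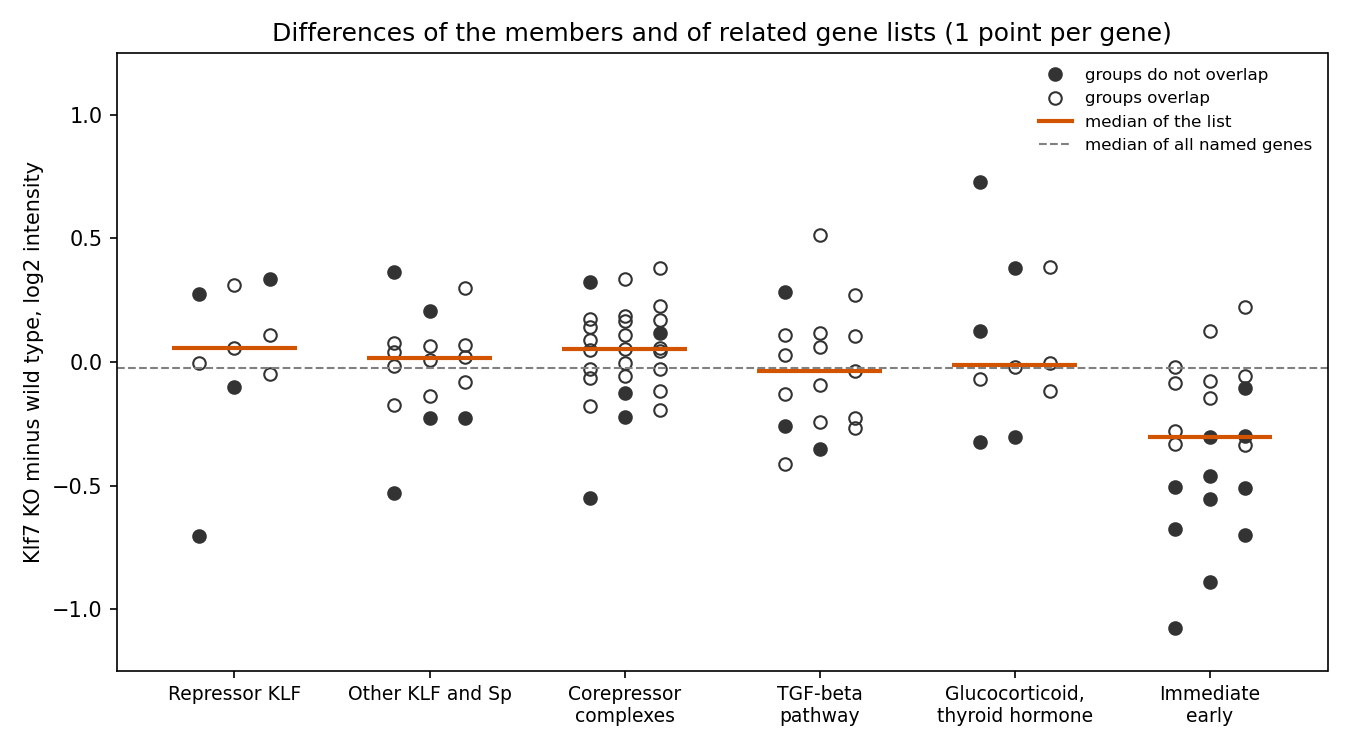
Knockout minus wild-type difference (vertical axis, log2 intensity) of every measured gene in the repressor KLF set and in 5 related lists, with 1 point per gene. Filled points are genes whose groups do not overlap, orange bars list medians and the dashed line the median of all named genes (-0.03), and the immediate early genes have a median of -0.30.

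Among named genes above the median level, those nearest to Klf10 in pattern were Cdc25c, Rnf19b and S100a11. Likeness was the root mean square distance over the 4 arrays after subtraction of each gene's own mean, and came to 0.04, 0.05 and 0.06 log2 units. Cdc25c, a phosphatase of mitotic entry, read 5.87 and 5.44 in knockout arrays against 6.32 and 6.42 in wild-type arrays. Rnf19b, a ubiquitin ligase, read 5.89 and 5.65 in knockout arrays against 6.49 and 6.55 in wild-type arrays. S100a11, a calcium-binding protein gene, read 10.47 and 10.32 in knockout arrays against 11.03 and 11.13 in wild-type arrays. In each of these genes knockout replicate 2 was the lowest array and wild-type replicate 2 the highest, as in Klf10. They were picked for this pattern out of the 9969 named genes above the median level, on 4 arrays, so their differences are a description.

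Markers of blood cell lineages, not all of them limited to mature cells, were read beside the members. Summed intensities of the megakaryocyte, granulocyte, B cell, and T and NK cell markers overlapped between the groups. Single markers behind these sums, named after their values were seen, did not all do so. Ppbp, a platelet chemokine gene, read 6.00 and 5.47 in knockout arrays against 4.85 and 4.14 in wild-type arrays, and Elane, the neutrophil elastase gene, 5.04 and 5.41 against 6.83 and 5.75. Both had an unadjusted p under 0.05 and a limma adjusted p of 0.945, and both were dimmer than the median level. Neither stood for its whole list. Of 8 granulocyte markers, 4 were higher and 4 lower in knockout, and 1 did not overlap (12.5%, beside 33.2% of all named genes). Of 5 megakaryocyte markers measured, 4 were higher and 1, Gp5, lower, and 2 did not overlap (40%), both higher in knockout. Knockout replicate 1 stood apart for the pre-B cell gene Vpreb1, at 385 intensity units, with 45.0 in knockout replicate 2 and 40.7 to 47.6 in wild type. It did so too for the granule gene Camp, at 216, with 63.3 in knockout replicate 2 and 80.4 to 82.8 in wild type. It was also the highest array for the granulocyte markers Ngp, Ltf, S100a8 and S100a9. For Elane, Mpo and Prtn3, the rest of that list, wild-type replicate 1 was the highest. Without knockout replicate 1 the differences were 0.43 for Klf8, 0.32 for Klf9 and -0.86 for Klf10. Summed intensities of 5 measured monocyte and macrophage markers were 403 to 406 in knockout arrays and 410 to 461 in wild-type arrays, without overlap. Taken singly, the groups overlapped for each of these 5 markers, with 2 higher and 3 lower in knockout. No array listed a marker at 0. The part of other cell types in the differences of Klf8, Klf9 and Klf10 was not tested.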

How the data were processed

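Labelled RNA from 4 samples, amplified with the NuGen Ovation kit per the labels' protocols, was read on Affymetrix arrays. The deposited values are an intensity per probe set and array on a linear scale, reaching 19067. The submitters' processing notes name RMA and Affymetrix Expression Console and give no version or setting. The scale was read from the values, and log2 was taken of these deposited intensities with no further normalization. The table held 35554 probe sets. Those ahead of the first annotated one, 6615 in all, were assumed to be controls and left out. The platform annotation gave 1 symbol for 21789 probe sets, several for 1621 and none for 5529, and symbols were updated through RefSeq (GRCm38.p6). A gene with several probe sets was represented by the brightest.

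Groups and replicate numbers came from the sample titles. The fit used limma 3.58.1 under R 4.3.3, by lmFit and eBayes with 2 residual and 2.63 prior degrees of freedom, two-sided, over all probe sets tested, and the fit was tested on simulated data. Detection calls were not used here, and precision is limited by having 2 arrays per group. Of each related list, members past the threshold were named, or else the 3 with the largest absolute difference among those above the median level. Members and lists were chosen with earlier results of these data known. Values were recomputed without dim probe sets, after cyclic loess, after a further quantile normalization, with 32 added before log2, with intensity-dependent variance (plain and robust), with replicate number as a block, without each array in turn, and averaging all probe sets of each gene. Keeping the leading probe sets was added after the data were seen.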

Additional observations from a re-analysis of the deposited data

How the results depend on the processing

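Over 115 values of the 9 genes under 13 alternatives, 110 kept their direction, 5 reversed and 0 came past the threshold, from which all 9 were short to begin with. Klf12 and Klf9 have no value with dim probe sets filtered. That filter, both variance settings, the replicate block, probe set averaging and the leading probe sets left each member's difference unchanged. Direction could not change under those settings, so their share of the 110 says nothing about stability. Leaving out single arrays gave all 5 reversals, whose cause was not tested: Klf3 ran from -0.091 to 0.080, Klf12 from -0.20 to 0.32, Klf11 from -0.011 to 0.23 and Klf16 from -0.23 to 0.13. Klf10 stayed between -0.86 and -0.54 over its 13 alternatives, with adjusted p from 0.683 to 0.996. Adding 32 before log2, which by construction shrinks differences of dim genes, brought Klf8 to 0.22, Klf9 to 0.17 and Klf10 to -0.54. The count of members without overlap, 4 with all arrays, was 5 to 8 when single arrays were dropped, which makes overlap rarer; it was 7 without wild-type replicate 1 and 8 without wild-type replicate 2. The number of probe sets past limma's threshold, 1 (Xist), was 0 after further quantile normalization, 0 with 32 added, 0 with intensity-dependent variance, 0 with its robust form, 0 when the leading probe sets entered the fit and 0 to 0 without single arrays; 1450 had an unadjusted p under 0.05 in the fit as reported. The replicate block gave 0 as well and left each member's difference as it was. Whether arrays of the same number share a mouse is not stated, and their deviations from the group means correlated at 0.0434 across probe sets. Detection over background was not used here, so dim genes such as Klf12 are the least certain.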
